A study of Mus musculus with 4 samples.

Results

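The serpins described here are the 5 mouse genes for alpha-1-antitrypsin (Serpina1a, Serpina1b, Serpina1c, Serpina1d and Serpina1e), the antichymotrypsin-like genes Serpina3k, Serpina3m and Serpina3n, the corticosteroid-binding globulin gene Serpina6 and the antithrombin gene Serpinc1. They were chosen by gene symbol, and all 10 were found among the 33924 gene symbols of the count files. The data were 4 libraries of liver RNA from C57BL6 mice, 1 library each for the ages of 3, 9, 15 and 21 months. According to the methods of the study the mice were males of the substrain C57BL/6Rj. Each library came from a pool of 24 mice, 4 at each of 6 times of the day, so that differences between single mice or between times of the day were averaged and could not be measured. The comparison asked how the level of each gene differed between the ages. With 1 library per age no value has a replicate error, and the intervals given cover counting error only. In bulk liver RNA, fewer cells of a type and less RNA per cell cannot be told apart.

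Serpins are secreted or intracellular protease inhibitors that work as baits. A protease cuts an exposed reactive loop near the carboxyl end of the serpin and is then trapped on it in a stable complex, and the residues of the loop decide which proteases are caught. Liver hepatocytes make most of the serpins of blood plasma. Alpha-1-antitrypsin inhibits neutrophil elastase, antithrombin inhibits thrombin and factor Xa and is accelerated by heparin, and Serpina3n is known as an acute phase gene induced in inflammation. The product of Serpina6 has lost protease inhibition and carries glucocorticoids in plasma. A single gene in humans corresponds to the group of Serpina1 paralogs in C57BL/6 mice, whose loops differ between the copies.

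The total counts on genes were between 525772 at 15 months and 958586 at 9 months, and 3 counts corresponded to between 3.13 and 5.71 cpm (counts scaled to the same library total on genes). The 10 serpins together held 4.23%, 3.41%, 2.81% and 3.35% of the counts on genes at 3, 9, 15 and 21 months. Between 72.2% and 76.7% of all alignment records were left out of the gene counts because the read aligned to more than 1 place. This rule touches the paralogs directly. The labelled tissue was checked with 6 hepatocyte markers (Alb, Apoa1, Ttr, Cyp3a11, Tat and Hnf4a), which were all detected in every library with a summed level between 73543 and 83193 cpm.

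Of the 10 genes, 9 lie within 767.7 kb on chromosome 12 of NCBIM37 (the assembly also called mm9), and all are annotated as protein-coding. Serpina6 is on the minus strand from 104884840 to 104895422. The Serpina1 genes follow on the same strand, with Serpina1b from 104966366 to 104976368, Serpina1d from 105001804 to 105011802, Serpina1a from 105091799 to 105104137, Serpina1c from 105133136 to 105143097 and Serpina1e from 105185141 to 105197185. Serpina3k (105576696 to 105583951), Serpina3m (105625374 to 105632467) and Serpina3n (105644939 to 105652539) are on the plus strand. Serpinc1 is the exception, at 162908737 to 162933141 of chromosome 1, on the plus strand.

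The coding sequences of the Serpina1 paralogs, each 1242 bases long, were 96.3% to 98.5% identical, with 19 differences between Serpina1a and Serpina1c and 46 between Serpina1e and either Serpina1b or Serpina1d. All 5 share an unbroken run of 226 identical bases. In the alignment 6.92% of the columns differed between any of them, but in the most variable 60 bases it was 30%, 18 columns, against a median of 4 over all such stretches. This stretch lies in the last exon, at coding bases 1101 to 1160, where the reactive loop is encoded. It is shown because the paralogs differ most here, with capitals at the columns that differ between any of the 5 genes. It holds 26 windows of 35 bases, the length of the reads. All of them had a single place in the genome, at up to 1 mismatch, in Serpina1c, Serpina1d and Serpina1e, and 21 in Serpina1b. In Serpina1a it was 0, and 20 had an identical copy elsewhere, so most reads of Serpina1a from this stretch cannot be assigned. The places on the minus strand of NCBIM37 are chr12:105091967-105092026 for Serpina1a, chr12:104966534-104966593 for Serpina1b, chr12:105133304-105133363 for Serpina1c, chr12:105001972-105002031 for Serpina1d and chr12:105185310-105185369 for Serpina1e.
Serpina1a: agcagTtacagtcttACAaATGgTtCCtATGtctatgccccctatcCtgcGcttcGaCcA
Serpina1b: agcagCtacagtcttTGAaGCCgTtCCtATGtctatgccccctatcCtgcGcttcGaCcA
Serpina1c: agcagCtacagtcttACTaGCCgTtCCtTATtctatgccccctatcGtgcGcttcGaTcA
Serpina1d: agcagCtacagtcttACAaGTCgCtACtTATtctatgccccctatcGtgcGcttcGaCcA
Serpina1e: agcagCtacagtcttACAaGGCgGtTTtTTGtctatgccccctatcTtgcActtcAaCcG
The triplet before tctatg, the codon of the reactive-site residue of antitrypsins, is ATG in Serpina1a and Serpina1b, TAT in Serpina1c and Serpina1d and TTG in Serpina1e. Thus 3 different codons stand at the site that a target protease meets.

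Serpina3k and Serpina3m were 91.6% identical in their coding sequences, Serpina3m and Serpina3n 85.2%, and Serpina3k and Serpina3n 82.7%. Between the Serpina1 and Serpina3 groups identity was 55.5% to 57.9%, and Serpinc1 shared 47.2% to 49.7% with the other genes. The most variable 60 bases of the Serpina3 genes, with 26 differing columns, also lay in the last exon and are printed with the differing bases in capitals. On the plus strand of NCBIM37 they are at chr12:105583477-105583536, chr12:105631977-105632036 and chr12:105651656-105651715, respectively.
Serpina3k: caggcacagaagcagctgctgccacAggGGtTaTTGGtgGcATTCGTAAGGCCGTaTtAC
Serpina3m: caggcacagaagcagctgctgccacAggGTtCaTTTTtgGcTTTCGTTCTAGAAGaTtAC
Serpina3n: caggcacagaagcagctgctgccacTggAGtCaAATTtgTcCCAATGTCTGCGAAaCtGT
The stretch starts with a run that is identical in the 3 genes and ends in the bases that differ.

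To see which reads could be counted at all, every window of 35 bases of the annotated transcripts, the length of the reads, was searched in the NCBIM37 genome on both strands with at most 1 mismatch. For Serpina1a, 90.6% of the windows had an identical copy elsewhere, for Serpina1c 81.3%, for Serpina1d 64.8%, for Serpina1b 61.6% and for Serpina1e 52.4%. Only 131 windows of Serpina1a were free of an identical copy, compared with 676 of Serpina1e. The windows of Serpina1a had identical copies most often in Serpina1c (72.6%) and Serpina1d (55.4%), followed by the pseudogene Gm8893 (49.96%), which lies between Serpina1d and Serpina1a and had 3, 3, 14 and 8 counts at 3, 9, 15 and 21 months. In the Serpina3 genes 25.9% (Serpina3k), 31.0% (Serpina3m) and 17.7% (Serpina3n) of the windows had an identical copy. No window of Serpina6 or Serpinc1 had another place, even with 1 mismatch, so that their counts are free of this loss.

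The sequenced fragments came from the capped ends of mRNA, and near these ends the difference between the paralogs was larger. In the first 100 bases of the annotated transcripts, all windows of Serpina1a, Serpina1b and Serpina1c that lie in the genome without a gap had an identical copy elsewhere, compared with 33.3% for Serpina1d and 48.5% for Serpina1e. For both Serpina3k and Serpina3m it was 74.3%, and for Serpina3n no window. Counts of a paralog are thus counts of its distinguishable reads, and a ratio of the counts of 2 paralogs is a ratio of distinguishable reads, not of levels. Whether the reads started at the annotated 5’-ends was not tested.

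**Figure D1:**
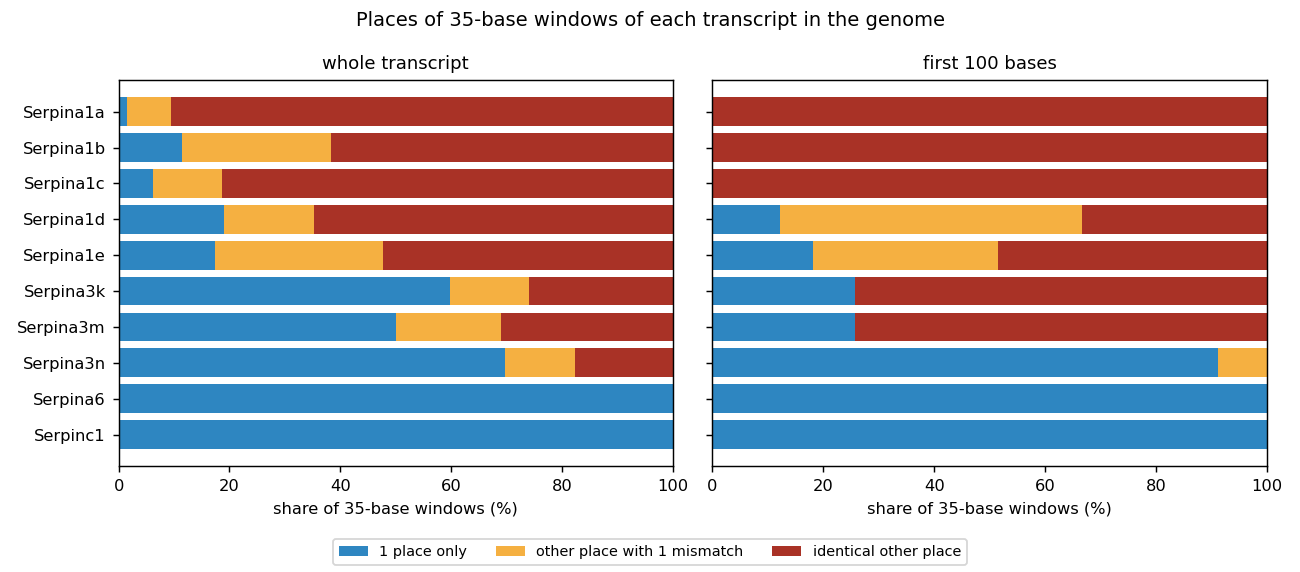
Share of the 35-base windows of each gene's transcript (bars, in percent of the windows found in the genome) with 1 place only, with another place that has 1 mismatch, and with an identical other place, over the whole transcript (left) and its first 100 bases (right). Serpina6 and Serpinc1 had a single place for every window, and Serpina1a, Serpina1b and Serpina1c had an identical copy for every window of the first 100 bases.

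Serpina1e had the most counts of the group, with 24059, 18403, 7857 and 13569 at 3, 9, 15 and 21 months. This was a level of 25168, 19198, 14944 and 18437 cpm, so that the 3 month library was highest and the 15 month library lowest. Scaled with TMM factors, which balance the libraries on most genes, the fold over 3 months was 0.794 (95% exact interval from 0.779 to 0.809) at 9 months. It was 0.580 (0.566 to 0.595) at 15 months and 0.725 (0.71 to 0.741) at 21 months. With Gapdh as the only reference the 15 month fold was 1.02 (0.993 to 1.04). On that scale the median 15 month fold of all tested genes was 1.76. The study left Gapdh out of its normalisation genes because it varied in several of the assessments. By the mean of its centered log-ratio Serpina1e was rank 6 of 8704 genes.

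Serpina1d had 6614, 4786, 1918 and 4079 counts at 3, 9, 15 and 21 months, or 6919, 4993, 3648 and 5542 cpm. The order of the libraries was that of Serpina1e at 3 and 15 months, but its level at 21 months was above that at 9 months. Its TMM-scaled fold over 3 months was 0.751 (0.724 to 0.780) at 9 months, 0.515 (0.489 to 0.542) at 15 months and 0.793 (0.762 to 0.825) at 21 months. From 15 to 21 months the fold was 1.54 (1.46 to 1.63). With Gapdh as the only reference these folds were closer to 1, at 0.904 (0.859 to 0.952) for 15 over 3 months and 1.09 (1.03 to 1.15) for 21 over 15 months.

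The 3 other paralogs had folds closer to 1 at 15 months. Serpina1c had 1342, 1250, 603 and 979 counts, or 1404, 1304, 1147 and 1330 cpm, with folds over 3 months of 0.967 (0.894 to 1.05), 0.798 (0.724 to 0.879) and 0.938 (0.863 to 1.02). Serpina1b had 758, 902, 479 and 644 counts, or 793, 941, 911 and 875 cpm. Its level at 3 months was the lowest of the ages, with folds of 1.24 (1.12 to 1.36) at 9 months, 1.12 (0.999 to 1.26) at 15 months and 1.09 (0.982 to 1.21) at 21 months. Serpina1a had 543, 722, 373 and 545 counts, or 568, 753, 709 and 741 cpm. Here also 3 months was lowest, and the folds of 1.38 (1.23 to 1.55), 1.22 (1.07 to 1.39) and 1.29 (1.14 to 1.46) had intervals above 1 at each later age. Relative to Gapdh alone the 15 month folds of Serpina1c, Serpina1b and Serpina1a were 1.40, 1.97 and 2.14, so that of Serpina1c turned its direction.

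**Figure D2:**
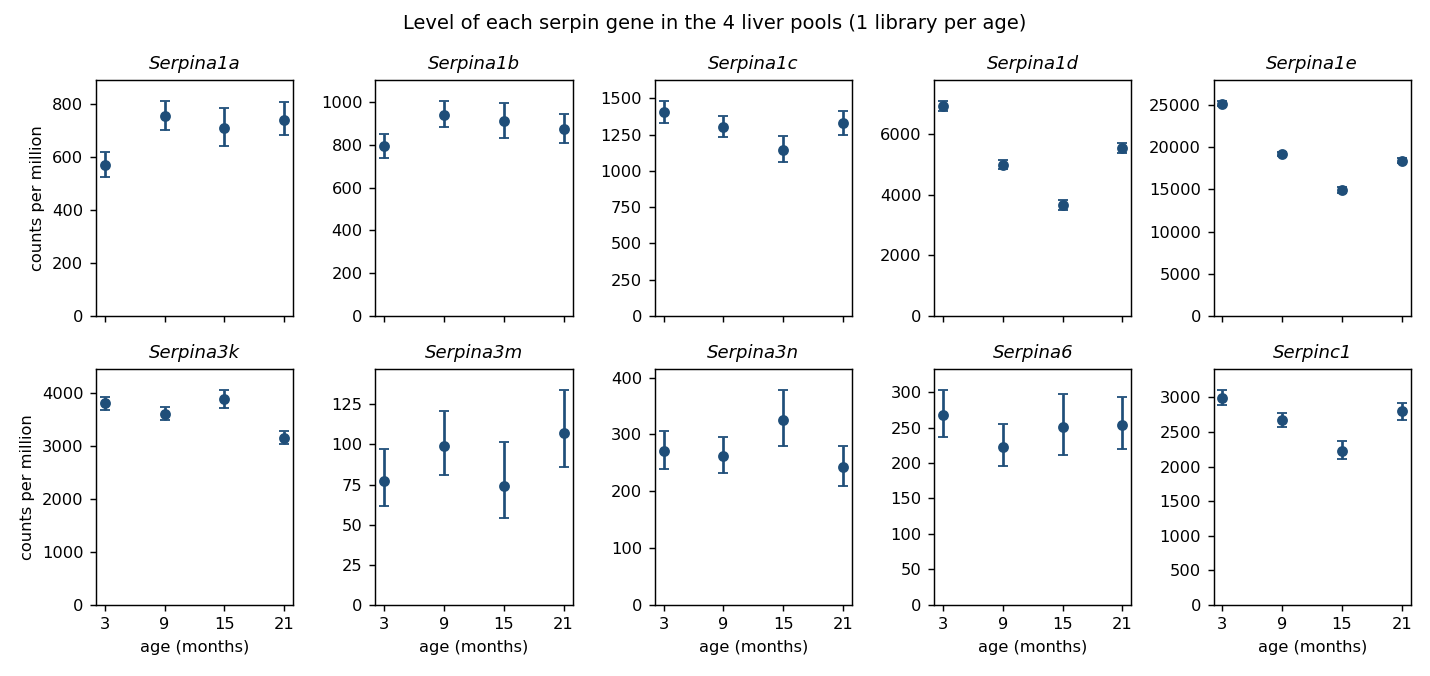
Level of each gene (y axis, cpm, from 0) against age in months (x axis), with 1 pool and library per age; points are the values and bars 95% Wilson intervals for counting error. On this scale, Serpina1c, Serpina1d and Serpina1e were highest at 3 and lowest at 15 months, as was Serpinc1, whereas Serpina1a and Serpina1b were lowest at 3 months.

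Summed over the 5 paralogs, the counts were 33316, 26063, 11230 and 19816, which is 3.49%, 2.72%, 2.14% and 2.69% of the counts on genes. The fold of the sum over 3 months was 0.812 (0.799 to 0.825) at 9 months, 0.599 (0.586 to 0.612) at 15 months and 0.765 (0.751 to 0.778) at 21 months. Because Serpina1e and Serpina1d make up most of the counted reads, the sum mirrors these genes. Serpina1c was also highest at 3 and lowest at 15 months, whereas Serpina1a and Serpina1b were lowest at 3 months. The denominator mattered for this group: relative to Gapdh alone, the fold of the sum at 15 months was 1.05 (1.03 to 1.07), a scaling that shifted the median of all tested genes by 0.81 on the log2 scale. Relative to the geometric mean of the 7 normalisation genes of the study it was 0.613 (0.600 to 0.627). Against albumin, the most abundant plasma protein made by hepatocytes, the counts of Serpina1e at the 4 ages were 0.461 (0.454 to 0.468), 0.330 (0.325 to 0.336), 0.267 (0.261 to 0.274) and 0.283 (0.278 to 0.288) of those of Alb.

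**Figure D3:**
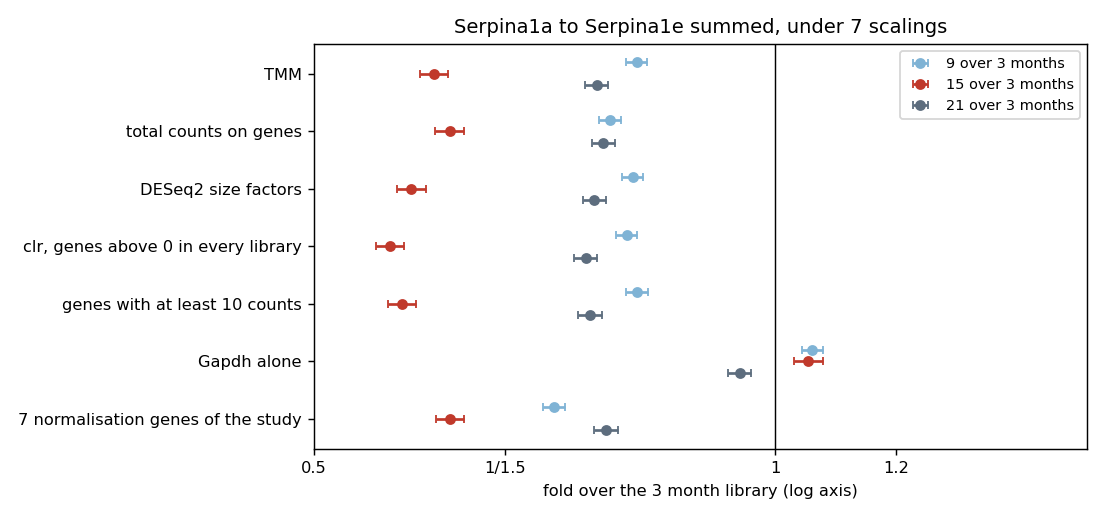
Fold of the summed Serpina1a to Serpina1e counts at 9, 15 and 21 months over 3 months (x axis, log scale) when the libraries are scaled in 7 ways (y axis); bars are 95% exact intervals for counting error. Only the scaling to Gapdh alone placed folds above 1, and the 15 month fold was between 0.560 and 0.613 under the others.

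The share of each paralog in the sum does not depend on any scaling between libraries. Serpina1e made up 72.2% (71.7% to 72.7%) of the sum at 3 months and 68.5% (67.8% to 69.1%) at 21 months, with 70.6% (70.1% to 71.2%) and 70.0% (69.1% to 70.8%) at 9 and 15 months between them. The share of Serpina1d was 19.9%, 18.4%, 17.1% and 20.6%. Serpina1a was 1.63% (1.5% to 1.77%) at 3 months and 3.32% (3.01% to 3.67%) at 15 months, with 2.77% and 2.75% at 9 and 21 months. Serpina1b similarly was 2.28% (2.12% to 2.44%) at 3 months and 4.27% (3.91% to 4.66%) at 15 months, with 3.46% and 3.25% at the other ages. For Serpina1c the share was 4.03%, 4.80%, 5.37% and 4.94%. Accordingly 44.3 (40.7 to 48.3) reads of Serpina1e were counted for each read of Serpina1a at 3 months and 21.1 (19.0 to 23.4) at 15 months, so that the makeup of the counted reads differed between these libraries by more than counting error.

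**Figure D4:**
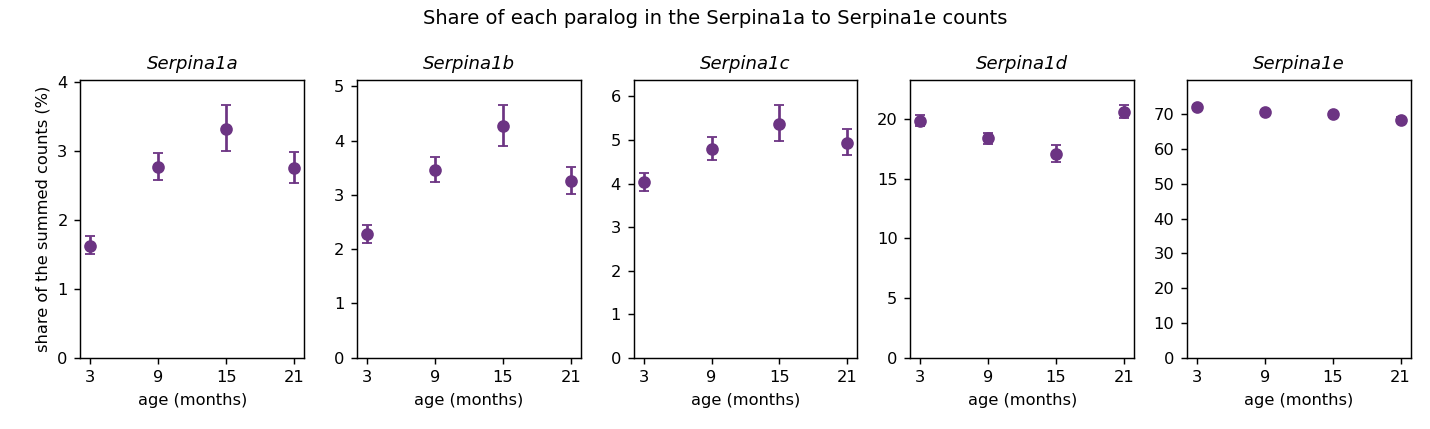
Share of each paralog in the summed Serpina1a to Serpina1e counts (y axis, percent, from 0, scaled for each gene) in the libraries of 3, 9, 15 and 21 months (x axis), with 95% Wilson intervals for counting error. Serpina1a and Serpina1b had their lowest share at 3 and their highest at 15 months, and Serpina1e had its lowest share, 68.5%, at 21 months.

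The counts were also set against the number of windows, which assumes reads spread evenly over the transcript, although the reads came from capped ends. Per 100 windows without an identical copy in the genome, Serpina1e had 3559 counts at 3 months, Serpina1d 1524, Serpina1c 594, Serpina1a 415 and Serpina1b 160. Per 100 windows with a single place at up to 1 mismatch, the values in this order were 9780, 2814, 1814, 2715 and 538. At 15 months they were 1162, 442, 267, 285 and 101 on the first scale and 3194, 816, 815, 1865 and 340 on the second. Serpina1e was highest and Serpina1b lowest on both scales at these ages, but Serpina1a stood below Serpina1d on the first scale and above it on the second at 15 months. The order of Serpina1a, Serpina1c and Serpina1d thus depended on the windows counted.

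The 5 paralogs also share sequence upstream of their start sites. RefSeq promoter sequences on GRCm38.p6 (250 bases before to 50 bases after the annotated start) were found for 7 of the 10 genes, and not for Serpina3k, Serpina3m and Serpina6. The 11 letters GTTAATATTCA, which begin with the core GTTAAT of the recognition sequence of the hepatocyte factor HNF1, were read from the Serpina1a promoter and were in all 5 Serpina1 promoters. On both strands, this longer motif was in 0.0213% of all 32851 promoter sequences (7 sequences, those of the 5 Serpina1 genes among them). GTTAAT, which it contains, was in 7.10%. Neither was found in the windows of Serpina3n and Serpinc1. The 11 letters were copied from a gene of this group. Their rarity and their presence in its paralogs are thus no test of an HNF1 site. Binding of HNF1 was not tested. The motif with its flanks was letter for letter the same in the 5 genes, on the minus strand at chr12:103863621-103863650 (Serpina1a), chr12:103738196-103738225 (Serpina1b), chr12:103904958-103904987 (Serpina1c), chr12:103773630-103773659 (Serpina1d) and chr12:103956956-103956985 (Serpina1e) of GRCm38.p6. It is shown once, with the motif in capitals, because paralogs with different values over age carry it alike.
Serpina1a to Serpina1e promoter: ggtgacattgGTTAATATTCActagcaaac

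Serpina3k, whose product is also called contrapsin, had 3634, 3461, 2039 and 2320 counts at 3, 9, 15 and 21 months, or 3802, 3611, 3878 and 3152 cpm. The first 3 ages lay close together, and 21 months was lowest. The folds over 3 months were 0.989 (0.943 to 1.04), 0.997 (0.944 to 1.05) and 0.821 (0.779 to 0.865). Although its gene lies on the same chromosome as the Serpina1 genes, its 15 month level thus did not stand below that of 3 months, with a fold interval that lay above those of Serpina1d and Serpina1e. With Gapdh as the only reference its 15 month fold was 1.75 (1.66 to 1.85), and at 21 over 15 months 0.582 (0.548 to 0.618).

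Its close relative Serpina3m had only 74, 95, 39 and 79 counts, or 77.4, 99.1, 74.2 and 107 cpm. The folds of 1.33 (0.973 to 1.83), 0.936 (0.618 to 1.40) and 1.37 (0.987 to 1.91) all had intervals that include 1, so that no difference from 3 months was detectable at this depth with TMM scaling (1.64, 1.09 to 2.45, at 15 months relative to Gapdh alone). For each read of Serpina3m there were 49.1 (39.0 to 62.7) reads of Serpina3k at 3 months and 29.4 (23.5 to 37.2) at 21 months. Summing both genes gave folds of 0.996, 0.996 and 0.832 over 3 months.

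For the acute phase gene Serpina3n, 259, 251, 171 and 178 counts were found, or 271, 262, 325 and 242 cpm, with the highest level at 15 months. The folds over 3 months were 1.01 (0.842 to 1.2), 1.17 (0.961 to 1.43) and 0.884 (0.726 to 1.07), and none was distinguishable from 1 at this depth with TMM scaling. Relative to Gapdh alone they were 1.31 (1.1 to 1.56) at 9 months and 2.06 (1.69 to 2.51) at 15 months. The fold of 21 over 15 months was 0.753 (0.607 to 0.935). In the list of 14 acute phase genes, the named liver genes were not all highest in the same library: Hp, which binds free haemoglobin, had 2541, 2256, 1967 and 2215 counts and a fold of 1.38 (1.30 to 1.46) at 15 months, and Fgg, a fibrinogen chain, had 2056, 1705, 877 and 1487 counts and a fold of 0.758 (0.699 to 0.821). The folds of Orm1, Hpx, Apcs, Crp, Fga and Fgb at 15 months were between 0.828 and 1.15. Of the 12 genes of this list that passed the filter on low counts, 4 were at least 1.5-fold higher at 15 than at 3 months, where 23.5% of all tested genes were. They were Saa1 (11, 11, 28 and 17 counts) and Saa4 (64, 76, 63 and 71), encoding serum amyloid A proteins, Orm2 (39, 46, 61 and 47), an orosomucoid, and Lcn2 (0, 9, 32 and 23), encoding lipocalin-2. The median fold of the 12 genes was 1.04.

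Serpina6 had 256, 214, 132 and 187 counts at 3, 9, 15 and 21 months, or 268, 223, 251 and 254 cpm. All fold intervals over 3 months included 1, with values of 0.868 (0.720 to 1.04), 0.916 (0.737 to 1.13) and 0.939 (0.774 to 1.14). Relative to Gapdh alone the 15 month fold was 1.61 (1.29 to 1.99). Its variance of the centered log-ratio, 0.00552, was close to what counting noise alone would give, 0.00538. Of the 5 genes of glucocorticoid handling none passed the trend test, and they differed in direction. Hsd11b1, which regenerates active glucocorticoid in hepatocytes, had 162, 326, 142 and 221 counts and folds over 3 months of 2.09 (1.73 to 2.54), 1.56 (1.23 to 1.96) and 1.75 (1.43 to 2.16). Tat, a glucocorticoid-induced enzyme of tyrosine breakdown, had 743, 1053, 337 and 569 counts and folds of 1.47 (1.34 to 1.62), 0.806 (0.706 to 0.918) and 0.985 (0.881 to 1.1). With few counts, Nr3c1, the glucocorticoid receptor (20, 38, 33 and 40 counts), had folds of 1.97, 2.93 and 2.57, and Fkbp5, a glucocorticoid-induced co-chaperone (37, 15, 12 and 7 counts), had folds of 0.421, 0.576 and 0.243. Srd5a1 (44, 51, 27 and 40 counts), a steroid reductase, was between 1.09 and 1.2.

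For Serpinc1, encoding antithrombin, the counts were 2860, 2561, 1173 and 2058, or 2992, 2672, 2231 and 2796 cpm. As in Serpina1c, Serpina1d and Serpina1e, 3 months was highest and 15 months lowest. The folds over 3 months were 0.930 (0.881 to 0.981), 0.729 (0.680 to 0.780) and 0.925 (0.874 to 0.979), and 21 over 15 months was 1.27 (1.18 to 1.37), whereas with Gapdh as the only reference the 15 month fold was 1.28 (1.19 to 1.37). Since all its windows have 1 place in the genome, this value does not rest on reads shared with a paralog.

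Of the proteases that antithrombin and related plasma serpins inhibit, and that hepatocytes make as precursors, F2 (prothrombin) had 1081, 792, 439 and 652 counts, with folds over 3 months of 0.761 (0.693 to 0.834), 0.721 (0.644 to 0.807) and 0.775 (0.703 to 0.855). By contrast F9 had 384, 457, 308 and 358 counts and a fold of 1.42 (1.22 to 1.66) at 15 months. For F7, F10, F12, Klkb1, Plg and Proc the 15 month folds were between 0.829 and 1.11. None of the 9 proteases was past 1.5-fold at 9 or 15 months. At 21 months 1 was lower, F11 (90, 83, 36 and 40 counts) with a fold of 0.571 (0.384 to 0.838), where 20.7% of all tested genes were. The median folds of the 9 over 3 months were 1.06, 0.95 and 1.04. Of the neutrophil proteases that antitrypsin inhibits, Elane and Ctsg were at 0 in every library, and Prtn3 had at most 3 counts. For the heparan sulphate genes, whose products give antithrombin its binding sites on vessel walls, Ndst1 had a fold of 0.754 (0.546 to 1.03) and Sdc4 of 1.04 (0.872 to 1.24) at 15 months. With fewer counts, Hs3st3b1 (62, 47, 46 and 57) was at 1.32 (0.880 to 1.96) and Ext1 (10, 21, 17 and 24) at 3.02 (1.31 to 7.38). The median of these 4 was 1.18, and 1 was higher by 1.5-fold or more, where 23.5% of all tested genes were. Hs3st1 had 0, 0, 3 and 0 counts.

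At 15 months against 3 months, 2 of the 10 serpins, Serpina1d and Serpina1e, were lower by 1.5-fold or more and none was higher with TMM scaling. With Gapdh alone, 0 were lower and 6 higher (Serpina1a, Serpina1b, Serpina3k, Serpina3m, Serpina3n and Serpina6). On that scale the median fold of all tested genes was itself 1.76. The 5 other scalings called the same 2 as TMM. Among all 5569 genes past the filter on low counts, 21.4% were lower and 23.5% higher by this amount, and among the 497 genes with at least 100 counts in every library 9.26% were lower and 8.65% higher. The 2 of 10 were thus near the background of all tested genes. Of the 10 serpins 9 were counted this deeply, too few to set 2 genes apart from the lower share among the deeply counted genes. None of the 10 was past 1.5-fold at 9 months (background 19.2% lower and 20.3% higher, or 6.04% and 8.25% of the deeply counted genes) or at 21 months (20.7% and 20.9%, or 5.63% and 4.23%) against 3 months. None was at 15 against 9 months either (20% lower and 21.5% higher, or 7.85% and 5.03%), but Serpina1d was lower with the clr (0.652) and the geometric mean of genes with at least 10 counts (0.653), and Serpina3n higher with Gapdh alone (1.57). Against 15 months, Serpina1d alone was higher by this amount at 21 months (background 21% of all tested genes, 5.03% of the deeply counted ones), and none was lower (22.4% and 4.43%). Serpina3m passed as well under 3 of the scalings, and with Gapdh alone Serpina1d did not pass (1.09) and Serpina3k (0.582) and Serpina3n (0.532) were lower. The median fold of the 10 genes was 0.978, 0.926 and 0.932 at 9, 15 and 21 months over 3 months, compared with 1.006, 1.004 and 1.004 over all tested genes.

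**Figure D5:**
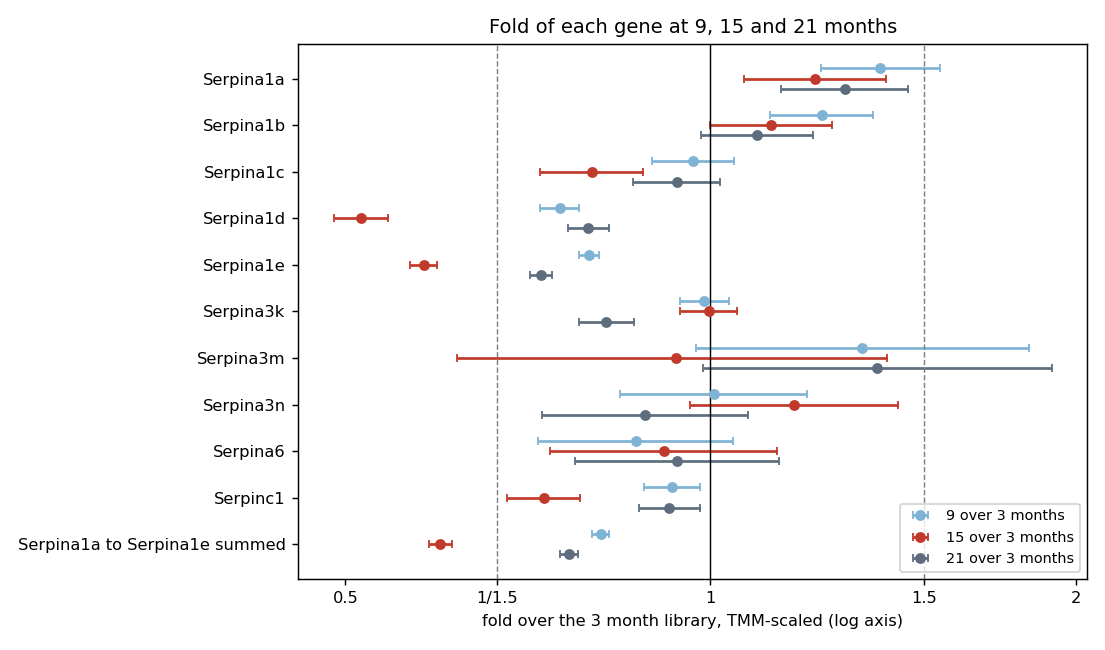
TMM-scaled fold of each gene and of the Serpina1 sum (y axis) at 9, 15 and 21 months over 3 months (x axis, log scale), with 95% exact intervals for counting error; dashed lines mark 1.5-fold in either direction. At 15 months Serpina1d (0.515) and Serpina1e (0.580) lay beyond the dashed line, and Serpina1a, with folds from 1.22 to 1.38, lay above 1 at each age. With Gapdh as the only reference, Serpina1e was at 1.02 at 15 months.

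A linear trend with age over the 4 libraries was tested with edgeR's quasi-likelihood test. All 10 serpins entered the fit and none passed an adjusted p of 0.05, where 6 of the 5569 genes did (0.108%), 0.0539% rising and 0.0539% falling. The largest estimate was that of Serpina1e with a log2 change of -0.54 (SE 0.30) from 3 to 21 months (adjusted p = 0.998, edgeR), followed by Serpina1d with -0.43 (SE 0.31). Serpina1a and Serpina3m had estimates of 0.27 (SE 0.36) and 0.27 (SE 0.45), and the other 6 lay between -0.25 and 0.07. At an unadjusted p of 0.05 none of the 10 passed either, where 290 of the 5569 genes did. With DESeq2 none of the 10 passed it, where 130 of the 5569 genes did, and the smallest p of the 10 was 0.12 for Serpina1e. Without the 21 month library the log2 estimates were -1.44 (SE 0.44) for Serpina1d and -1.19 (SE 0.38) for Serpina1e. Both passed an unadjusted p of 0.05, where 391 of 5496 genes did, but not the adjusted one (edgeR adjusted p = 0.159 and 0.194). Without the 3 month library the estimates of Serpina1d and Serpina1e were 0.12 (SE 0.55) and -0.19 (SE 0.61), so that both depended on single libraries. The spread in this test is the departure of the libraries from a straight line, with 2 residual degrees of freedom for each gene. The fit draws the spread of each gene towards that of the other genes, so a p-value does not rest on that gene alone. The low values at 15 months followed by higher ones at 21 months are a departure from the line.

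The variability measure of the study, the variance of the centered log-ratio (clr, the natural logarithm of a count over the geometric mean, here of the 8704 genes above 0 in every library and not of the 5’-ends selected in the study), was below the median of these genes (0.16) for each of the 10 serpins. It was highest for Serpina1d with 0.0919, above that of 35.2% of all genes, and Serpina1e with 0.0637. Since this variance contains counting noise, which is small for abundant genes, it was also set against the 497 genes with at least 100 counts in every library, whose median was 0.0243. There Serpina1d lay above 92.0% and Serpina1e above 83.3% of the genes, Serpinc1 with 0.0278 above 57.3%, and the other 6 serpins counted this deeply were below the median. The lowest variances were those of Serpina6 (0.00552), Serpina1b (0.00698), Serpina3k (0.00911) and Serpina3n (0.00923).

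Among the other serpins, those with at least 50 counts in every library were Serpina10, Serpina11, Serpind1, Serpinf1, Serpinf2 and Serping1. Serpina10, the inhibitor of factor Xa that acts with protein Z, had 271, 202, 109 and 167 counts and folds over 3 months of 0.774 (0.642 to 0.932), 0.715 (0.567 to 0.896) and 0.792 (0.649 to 0.964). Serpina11 was at 0.777 (0.599 to 1.005), 0.733 (0.532 to 0.999) and 1.25 (0.982 to 1.59). Serpinf1, which encodes the antiangiogenic factor PEDF, had a fold of 0.665 (0.567 to 0.780) at 9 months. It was 0.831 (0.696 to 0.990) at 15 months and 0.983 (0.845 to 1.14) at 21 months. Serpind1 (heparin cofactor II), Serpinf2 (alpha-2-antiplasmin) and Serping1 (the inhibitor of complement C1) had 15 month folds of 1.09 (0.938 to 1.26), 0.771 (0.657 to 0.901) and 0.887 (0.798 to 0.984). Serpina12, with 79, 127, 43 and 107 counts, had folds of 1.67 (1.25 to 2.24), 0.967 (0.651 to 1.42) and 1.74 (1.29 to 2.36). Of the 16 other clade A genes found in the files, Serpina10, Serpina11 and Serpina12 among them, 3 had no count in any library, and none of the 4 tested for a trend passed. None of the tested genes in any of the other lists passed it either. Among them, Hnf4a had a fold of 1.06 (0.884 to 1.26) and Cebpa of 1.14 (0.846 to 1.54) at 15 months, both encoding factors of hepatocyte genes. At 21 months Hnf4a was at 1.09 (0.930 to 1.28) and Cebpa, with 118, 99, 76 and 51 counts, at 0.556 (0.392 to 0.778). Of the 6 tested hepatocyte transcription factors, 0 were lower by 1.5-fold or more and 2 higher at 15 months (21.4% and 23.5% of all tested genes). At 21 months 3 were lower and 0 higher (20.7% and 20.9%), those other than Cebpa with few counts.

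To find genes with a like pattern, the TMM-scaled log2 levels over the 4 libraries, centred on their mean, were compared with those of the Serpina1 sum for 120 other genes with at least 500 counts in every library. Among the smallest Euclidean distances were those of Gstm1 (0.123), a glutathione transferase, Cat (0.175), encoding catalase, Ahsg (0.191), encoding the plasma protein fetuin-A, and Cyp1a2 (0.203), a cytochrome P450, against a median distance of 0.582. Their folds at 15 over 3 months were 0.670, 0.699, 0.636 and 0.726. With 4 libraries this likeness is a description only.

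Values of other cell types were read beside these results. The summed level of 7 Kupffer cell and macrophage markers was between 635 and 889 cpm, highest at 21 months. For lymphocytes (5 genes) it was 15.7, 19.8, 60.9 and 70.7 cpm at 3, 9, 15 and 21 months, for stellate cells (5 genes) between 322 and 555 cpm, for sinusoidal endothelium (5 genes) between 474 and 609 cpm, for erythrocytes (3 genes) between 991 and 1710 cpm, for cholangiocytes (4 genes, Epcam at 0) between 6.26 and 24.5 cpm and for neutrophils (4 genes, S100a9, Elane and Mpo at 0) between 1.04 and 11.4 cpm. Pancreas markers (3 genes) had 30, 11, 0 and 84 counts. The summed hepatocyte markers were at 77081 cpm at 3 months and 73543 cpm at 15 months. Single markers of that list differed, with folds at 9 and 15 months of 1.47 and 0.806 for Tat and of 0.887 and 1.06 for Hnf4a. The part of any of these cell types in the results was not tested.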

How the data were processed

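Uncapped RNA was digested away from the pooled RNA, linkers were joined to the former cap sites, and the bar-coded libraries shared a lane of a SOLiD sequencer (forward reads of 35 bases). The authors aligned the reads to the mm9 genome in CLC software. The deposited values are raw counts of reads per gene symbol without normalisation, made per the labels with HTSeq; its version, strand setting and annotation, and whether a read with a single best place counted as unique, were not given in the sources used here. Rows that name no gene were left out: reads without a feature (15.5% to 19.0% of the alignment records), ambiguous reads (0.377% to 0.473%) and reads without a unique place.

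Ages were taken from the labels. Folds used TMM effective library sizes, with exact Clopper-Pearson intervals, and shares Wilson intervals (95%). As there is 1 library per age, 1.5-fold served as the call. The trend test used edgeR 4.0.16 (R 4.3.3) with TMM and filterByExpr, and Benjamini-Hochberg adjustment over all genes tested. Its p-values measure only the spread of these 4 libraries around a line, with the spread of each gene drawn towards that of the other genes. Other work used Python 3.11.15, scipy 1.17.1 and MAFFT 7.526. The trend fit, the intervals and the window search were tested on simulated data. Genes named beyond the 10 were those of fixed lists with at least 50 counts in every library (at most 8 per list), plus the 5 nearest profiles, of which 1 is not reported here; genes given at or near 0, the acute phase genes past 1.5-fold, F11, Nr3c1, Fkbp5, Srd5a1, Gm8893, Alb and Gapdh were named after their values were seen. The members and lists were chosen with earlier results of these data known. Alternatives were other scalings (library totals, DESeq2 1.42.0 size factors, 2 geometric means, Gapdh, 7 normalisation genes of the study), no filter, the DESeq2 Wald test, leaving out each age, summed paralogs, a pseudocount of 1 and minimum counts of 10 or 100; the last, and the windows with a single place, were added after seeing the data. The reference was NCBIM37 with GENCODE M1. Transcripts were the models numbered 001, and for Serpinc1 the only model.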

Additional observations from a re-analysis of the deposited data

How the results depend on the processing

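The fold of the summed Serpina1 counts at 15 over 3 months was 0.599 with TMM, 0.613 with library totals, 0.579 with DESeq2 size factors, 0.560 with the clr, 0.570 with the geometric mean of genes with at least 10 counts, 0.613 with the 7 normalisation genes of the study and 1.05, in the opposite direction, with Gapdh alone. At 9 over 3 months it was 0.812 with TMM, 0.780 with library totals, 0.717 with the 7 genes and 1.06 with Gapdh, and at 21 over 3 months 0.765 with TMM and 0.948 with Gapdh. Gapdh alone shifted the median of all tested genes at 15 over 3 months by 0.81 on the log2 scale, the 7 genes shifted that of 9 over 3 months by -0.18, and by construction such a shift is the same for every gene. With Gapdh alone 0 of the 10 serpins, in place of 2, were lower by 1.5-fold at 15 months, 6 were higher, and the fold of Serpina1e was 1.02. At 21 over 15 months Serpina3m passed 1.5-fold beside Serpina1d with DESeq2 size factors and both geometric means over genes, with Gapdh alone Serpina1d did not and 2 serpins were lower, and at 9 over 3 months Serpina1d was lower by 1.5-fold with the 7 genes. The trend called 6 genes in all, 0 with the DESeq2 Wald test (130 at an unadjusted p of 0.05), and 7 to 23 without 1 of the ages (16 without 15 months, 23 without 21 months); none of the 10 serpins was called under any of the settings run. Leaving out 1 age at a time, the estimates from 3 to 21 months (log2) ran from -0.14 to 0.43 for Serpina1a, -0.26 to 0.25 for Serpina1b, -1.44 to 0.12 for Serpina1d and -0.20 to 0.18 for Serpina6, each with the changed sign without the 3 month library. They ran from -0.10 to 0.39 for Serpina3m and -0.27 to 0.34 for Serpina3n, with the changed sign without the 21 month library. The cause was not tested. The number of serpins with a clr variance above the median of all genes was 0, and 2 when the clr and its median were recomputed from genes with at least 10 or at least 100 counts in every library; against the latter genes with the clr over all 8704 genes it was 3. No paired analysis was possible because there is 1 library per age. Depth limits the values of Serpina3m most, with 39 to 95 counts.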
